A study of Oryza sativa with 20 samples.

Results

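The change in transcript levels between 4 and 8 h after a mock treatment was measured in stem bases of rice seedlings. Of the 20 arrays of the study, the 10 from mock-treated seedlings were used, 5 taken at 8 h and 5 at 4 h, and each array at 8 h was paired with the array of the same line at 4 h. All groups shared the crl1 mutation (crown rootless 1) and the cultivar, Taichung 65. CRL1 is a LOB-domain transcription factor needed for crown root formation. Control line 1 was the untransformed mutant. Control line 2 was the mutant transformed with the empty vector pINDEX2, and CRL1 lines 1, 2 and 3 carried the CRL1 coding sequence in that vector, under a promoter that responds to the steroid dexamethasone. The transformed lines were homozygous, single-locus T2 lines, so each stands for 1 transformation event. Mock treatment was ethanol at 0.5‰, and none of these 10 samples received dexamethasone. The other 10 arrays came from the same lines and times with 10 µM dexamethasone.

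Seedlings were grown at 26 °C with 12 h of light and 12 h of darkness, put into liquid half-strength medium when 7 days old and treated on the next day, and each array holds a pool of 20 stem bases. The sources used here do not give the hour of the day at which treatment began. Time after treatment, hour of the day and time in the liquid medium therefore cannot be told apart. In such a bulk sample, fewer cells of a type and less RNA per cell cannot be told apart either.

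Plants keep daily time with a circadian clock built from transcription factors that repress each other in sequence. CCA1, also called LHY, is a MYB factor whose transcript is highest around dawn, while PCL1, GI and PRR1 (the rice counterpart of TOC1 of Arabidopsis) are known for transcripts that peak later in the day. PRR73, PRR37 and PRR95 are pseudo-response regulators that act between these phases, and the clock also sets daily rhythms of chlorophyll synthesis, photosynthesis and water channel genes.

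Signals were the deposited MAS5 intensities, in which arrays had been scaled to the same trimmed mean, and array medians lay between 10.1 and 15.5. Markers of several tissues were measured, though some sums are carried by 1 gene. The 6 matched shoot meristem markers summed to 1507.5 to 2742.1 at 4 h and 1294.1 to 1930.9 at 8 h, and the 9 matched leaf markers to 11520 to 17932.5 and 13125.8 to 16012.7. CAB2R alone gave 6454.4 to 9229 of the leaf sum. The 12 root markers summed to 2598.4 to 4924.2 at 4 h and 2743.7 to 4469.9 at 8 h, of which NAS3 gave 2062 to 3695.4, while others such as IRT1 (9.9 to 27.4) lay near the array medians. The 8 vascular markers summed to 2885.6 to 3429.2 and 2182.7 to 3250.8. The 4 crown root primordium markers, QHB, SHR1, SCR1 and WOX11, summed to 181.6 to 404.2 at 4 h and 222.9 to 422.5 at 8 h. Sums at 4 and 8 h overlapped for all 5 marker lists, and with 5 lines the only marker called between the times was the leaf gene rca, described below. When control line 1 was left out, the leaf genes PORA and CHLH, described below, were called as well, and so was the root gene CASP1 of the Casparian strip. CASP1 had 14.7 to 27.1 at 4 h and 30.5 to 46.9 at 8 h over all 5 lines and rose by 1.02 ± 0.17 over the 4 lines (limma adjusted p = 0.0411), against 0.85 ± 0.19 over 5 (limma adjusted p = 0.113). The part of these markers in the results was not tested. No 2 arrays held identical values.

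Control line 1 stood apart from the other lines in the genes called here, and results that rest on it are therefore given with and without it. Of the 149 probe sets called below, it had the smallest change of the 5 lines for 70, against 15 to 25 for each other line. Over the 149 its median change in the called direction was 0.54 on the log2 scale, against 0.82 to 0.89 in the others, while over all tested probe sets its median absolute change of 0.25 lay within the range of the others, 0.19 to 0.26. Over all tested probe sets its changes correlated with those of the other lines at -0.04 to 0.24, and theirs with each other at 0.05 to 0.19, so it did not stand apart by that measure. CRL1 itself is not named among the annotated probe sets, so the transgene was not followed here.

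Between 4 and 8 h the clock genes PCL1, GI and PRR1 rose and CCA1 fell. The photosynthesis genes rca and PSAG, the chloroplast development factor GLK1 and the water channel genes PIP1-3, PIP2-4 and PIP2-5 fell, while most measured members of their lists were not called. With limma and line as a block, 46 of 30422 tested probe sets were higher at 8 h (0.151%) and 103 were lower (0.339%) at a Benjamini-Hochberg adjusted p under 0.05, and 3480 had an unadjusted p under 0.05. By gene, with 1 probe set each, 38 of 16161 genes rose (0.235%) and 64 fell (0.396%). Of the called probe sets 25 rose and 27 fell by at least 2-fold, and 148 of the 149 moved the same way in all 5 lines. The exception was a probe set of LOC4348520, with log2 changes of -0.06 in control line 1 and 2.71 to 3.23 in the others. Calling by a paired test on these same changes favours such agreement, so the count of 148 supports nothing further.

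Most called genes are listed only by a locus number: 7 genes with a name rose and 21 fell. Without control line 1, 86 probe sets were higher (0.283%) and 144 lower (0.473%), and by gene 61 rose (0.377%) and 97 fell (0.6%). These 230 probe sets held 120 of the 149, which is 80.5% of the list from 5 lines and 52.2% of the list from 4. The calls depended on each of the other lines as well. Of the 28 named genes called with 5 lines, 24 were called without control line 1, 3 without control line 2, and 5, 1 and 4 without CRL1 lines 1, 2 and 3. All 28 kept their direction in each of these fits, but their choice fixed this, since each had to move the same way in all 5 lines.

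CCA1 had signals at 4 h of 396.0 in control line 1, 935.8 in control line 2 and 984.7, 555.4 and 800.6 in CRL1 lines 1, 2 and 3. At 8 h, in the same order of lines, CCA1 stood at 302.1, 242.8, 278.6, 140.6 and 213.0. The groups did not overlap, and control line 1 was the lowest at 4 h and the highest at 8 h. The transcript fell by 1.60 ± 0.21 on the log2 scale (n = 5 pairs), a signal 3.04-fold higher at 4 h, with a limma adjusted p of 0.022. Every ± in this text is the moderated SE of limma, which takes part of its variance from other probe sets. It is not the SE of the paired changes alone and can be smaller than that. Without control line 1 CCA1 fell by 1.91 ± 0.08 (limma adjusted p = 2.9e-05). It fell by 0.39 in control line 1 and by 1.82 to 1.97 in the others.

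PCL1, a GARP-family factor of the evening part of the clock, had the largest rise of any named gene. At 4 h its signal was 1008.4 in control line 1, 40.5 in control line 2 and 47.4, 70.0 and 84.2 in CRL1 lines 1, 2 and 3. At 8 h, in the same order, PCL1 reached 1065.7, 1781.5, 1358.7, 1944.2 and 1626.4. The 8 h signals were all above the 4 h signals, but in control line 1 the gene was already high at 4 h. The log2 change of PCL1 was 3.86 ± 0.63 (limma adjusted p = 0.0438) over 5 lines and 4.80 ± 0.16 without control line 1 (limma adjusted p = 1e-05). The change was 0.08 in control line 1 and 4.24 to 5.40 in the others.

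GI, a large clock protein that also acts in flowering, had 4 h signals of 1431.0, 826.2, 870.7, 1003.3 and 1030.9 in control lines 1 and 2 and CRL1 lines 1, 2 and 3. Its 8 h signals were 1642.5, 1411.7, 1373.5, 1772.4 and 1458.6. The groups overlapped only through the 4 h array of control line 1, and every line was higher at 8 h than at 4 h. GI rose by 0.59 ± 0.09 (limma adjusted p = 0.0402), and by 0.69 ± 0.08 without control line 1 (limma adjusted p = 0.00736).

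PRR1 had 4 h signals of 202.0, 148.2, 179.9, 189.2 and 192.8 and 8 h signals of 240.8, 254.1, 251.0, 274.1 and 284.2. The groups did not overlap. PRR1 rose by 0.52 ± 0.09 (limma adjusted p = 0.0484), the smallest change of the 4 clock genes that were called, and by 0.58 ± 0.09 without control line 1 (limma adjusted p = 0.0255). Of the 7 measured clock genes 3 rose and 1 fell, beside 0.235% and 0.396% of all genes, in a list chosen with earlier results known. For the other 3 the test was not passed. PRR95 had a log2 change of -0.53 ± 0.12 (limma adjusted p = 0.121) and was lower at 8 h in all 5 lines. PRR73 had -0.25 ± 0.08 (limma adjusted p = 0.3) and PRR37 0.05 ± 0.08 (limma adjusted p = 0.861), and their groups overlapped. The median log2 change of the 7 clock genes was 0.05, against 0.003 over all genes tested.

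**Figure D1:**
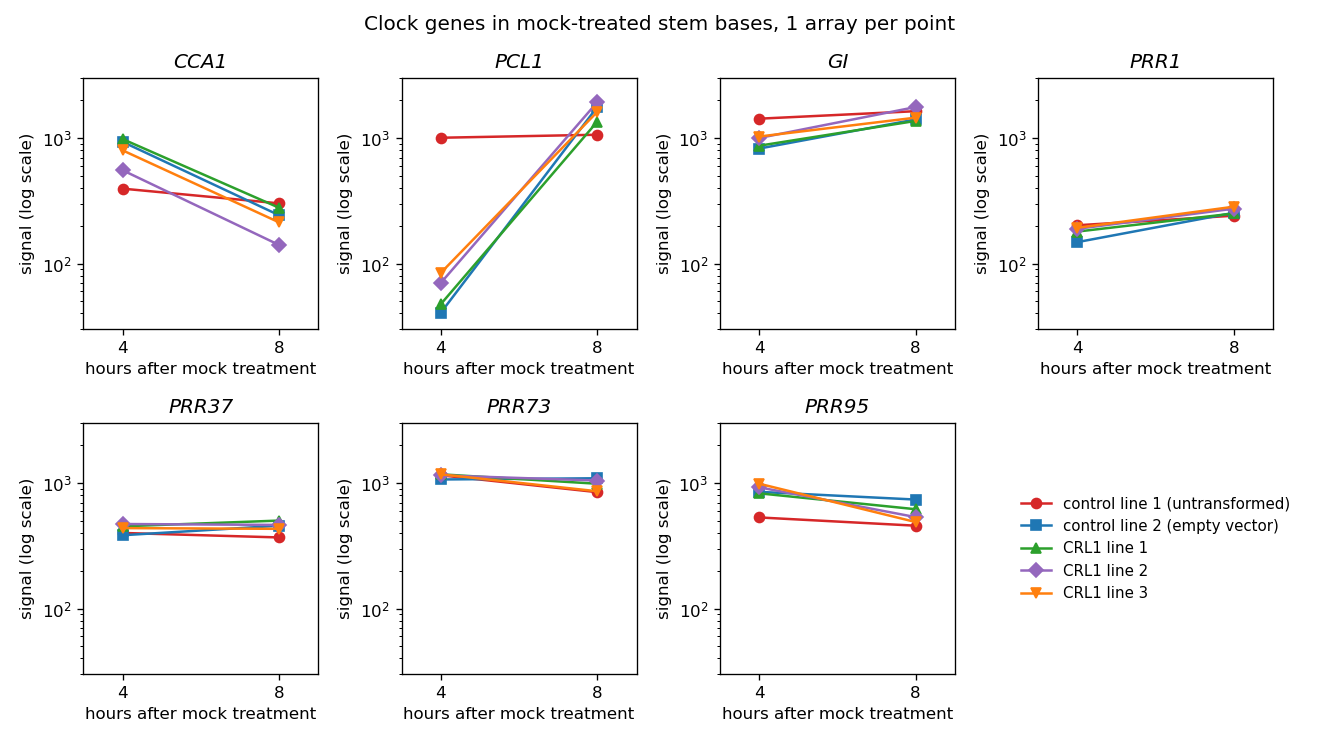
Signal of the 7 measured clock genes on a log axis at 4 and 8 h after mock treatment, with 1 point per array and 1 colour per line. In control line 1 PCL1 stays level (1008.4 and 1065.7) while it climbs from 84.2 or less to 1358.7 or more in the other 4 lines, and CCA1 falls least in control line 1.

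In the photosynthesis and chlorophyll list 3 of 18 measured genes fell and none rose, beside 0.396% of all genes that fell. Averaging the probe sets of each gene left 2 calls. The median log2 change of the list was -0.15, against 0.003 over all genes. The gene rca encodes Rubisco activase, which frees the carbon-fixing enzyme from inhibitory sugars. Its 4 h signals were 991.6 and 1605.1 in control lines 1 and 2 and 1702.8, 1400.6 and 1141.6 in CRL1 lines 1, 2 and 3, and its 8 h signals 483.7, 906.9, 700.3, 639.0 and 839.2. The groups did not overlap, and control line 1 was the lowest at both times. The transcript fell by 0.94 ± 0.11 (limma adjusted p = 0.0189), and by 0.92 ± 0.13 without control line 1 (limma adjusted p = 0.0171), and 3 of its 4 probe sets were called.

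PSAG, a subunit of photosystem I, had 4 h signals of 181.9, 213.5, 208.6, 148.6 and 168.0 and 8 h signals of 152.4, 96.8, 73.7, 61.9 and 94.5. Only the 8 h array of control line 1 reached into the 4 h range. PSAG fell by 0.98 ± 0.16 (limma adjusted p = 0.0416), and by 1.17 ± 0.12 without control line 1 (limma adjusted p = 0.00421). A second, dim probe set of the gene gave 0.55 ± 0.42 and was not called. GLK1, a factor that drives chloroplast development, had 4 h signals of 188.3, 273.3, 302.9, 329.6 and 283.5 and 8 h signals of 138.9, 149.7, 141.1, 124.3 and 201.0. The CRL1 line 3 array at 8 h lay above the control line 1 array at 4 h, and otherwise the groups were apart. GLK1 fell by 0.86 ± 0.14 (limma adjusted p = 0.0416), and by 0.96 ± 0.14 without control line 1 (limma adjusted p = 0.0189).

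Without control line 1 the count in this list was 6 of 18, beside 0.6% of all genes that fell in that fit. The genes added were PORA, CHLH and CAO, all enzymes of chlorophyll synthesis. PORA had 4 h signals of 205.2 in control line 1 and 1478.3, 1350.6, 1348.4 and 1628.9 in the other lines. Its 8 h signals were 213.1 in control line 1 and 673.3, 479.9, 445.1 and 729.5 in the other lines. Control line 1 was low at both times, and in the other 4 lines the groups did not overlap. PORA had a log2 change of -1.06 ± 0.20 over 5 lines (limma adjusted p = 0.0675) and fell by 1.34 ± 0.10 over 4 (limma adjusted p = 0.000684). CHLH fell by 0.57 ± 0.08 (limma adjusted p = 0.0176) and CAO by 0.67 ± 0.10 (limma adjusted p = 0.0239) over the 4 lines. In control line 1 their changes were 0.01 and 0.29, and over 5 lines CHLH had -0.46 ± 0.10 (limma adjusted p = 0.117) and CAO -0.48 ± 0.15 (limma adjusted p = 0.27). A second, dimmer CHLH probe set had 0.18 ± 0.12 over 5 lines.

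Of 21 measured aquaporins 3 fell and none rose, beside 0.396% of all genes that fell and 0.235% that rose, and all 3 belong to the plasma membrane family that carries water across cells. PIP2-4 had 4 h signals of 756.3 and 487.1 in control lines 1 and 2 and 576.7, 462.2 and 486.1 in CRL1 lines 1, 2 and 3. At 8 h PIP2-4 had 172.8, 290.7, 278.6, 125.9 and 236.8, below every 4 h array. It fell by 1.36 ± 0.19 (limma adjusted p = 0.0244), most in control line 1, where the log2 change was -2.12. PIP1-3 fell by 0.91 ± 0.10 (limma adjusted p = 0.00982), with changes of -1.31 to -0.66 by line, and PIP2-5 by 0.87 ± 0.11 (limma adjusted p = 0.0216), with -1.18 to -0.52. Signals of both overlapped between the times because lines differed in level. The fall of all 3 was also called without control line 1, where the tonoplast channel TIP4-1 rose by 0.50 ± 0.09 (limma adjusted p = 0.0398). Over all genes 0.377% rose and 0.6% fell in that fit. The aquaporin list had a median log2 change of -0.06.

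BBD1, named for a bifunctional nuclease, had 4 h signals of 296.6, 127.1, 162.9, 184.7 and 206.2 and 8 h signals of 432.2, 515.9, 486.9, 454.0 and 508.6. The groups did not overlap, and control line 1 was again the highest at 4 h and the lowest at 8 h. BBD1 rose by 1.34 ± 0.17, or 2.53-fold (limma adjusted p = 0.0216). HSF03, a class C heat shock factor also listed as HSFC1B, had 4 h signals of 82.6, 61.5, 63.6, 61.0 and 75.3 and 8 h signals of 95.3, 209.3, 203.9, 154.8 and 235.4. It rose by 1.31 ± 0.20 (limma adjusted p = 0.0384), by 0.20 in control line 1 and by 1.32 to 1.74 in the other 4 lines. It was the only one of 29 heat shock genes with a call, beside 0.235% of all genes that rose.

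LIR1, a light-induced chloroplast protein, had 4 h signals of 719.0, 747.6, 785.7, 792.7 and 628.8 and 8 h signals of 912.4, 1198.6, 1214.2, 938.2 and 1108.8. The groups did not overlap, and LIR1 rose by 0.54 ± 0.09 (limma adjusted p = 0.0468). PP2C45, a protein phosphatase 2C, had 4 h signals of 1032.5, 2054.6, 1153.7, 912.4 and 1362.5 and 8 h signals of 2858.4, 2641.9, 1664.9, 2737.0 and 2845.8. The 4 h array of control line 2 lay above the 8 h array of CRL1 line 1. PP2C45 rose by 1.00 ± 0.17 (limma adjusted p = 0.0468) but was not called without control line 1 (limma adjusted p = 0.0754), and its second probe set had a change of 0.01 ± 0.08. PP2C45 was 1 of 2 calls among 74 genes linked to abscisic acid, beside 0.235% of all genes that rose and 0.396% that fell. The other was ZEP1, zeaxanthin epoxidase of the route to abscisic acid, which fell by 0.70 ± 0.10 (limma adjusted p = 0.0244), with 115.2 to 154.1 at 4 h and 60.1 to 100.7 at 8 h.

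Among the other named genes that fell, APRL1, an adenylylsulfate reductase-like protein, fell by 0.88 ± 0.08 (limma adjusted p = 0.00585), and a second probe set was also called. A gene listed as CIPK7 and also as TATA and THA4, for which no role is given, had 4 h signals of 116.0 to 150.5 and 8 h signals of 55.2 to 72.2. It fell by 1.12 ± 0.11 (limma adjusted p = 0.00665), while its other probe set had a change of 0.10 ± 0.07. ADF11 and ADF7, which take actin filaments apart, fell by 0.95 ± 0.15 (limma adjusted p = 0.0416) and 0.53 ± 0.09 (limma adjusted p = 0.0484). MRS2-A, a magnesium transporter, fell by 0.84 ± 0.12 (limma adjusted p = 0.0326), by 0.23 in control line 1 and by 0.86 to 1.08 in the other lines.

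ADC1, arginine decarboxylase of polyamine synthesis, fell by 0.77 ± 0.13 (limma adjusted p = 0.0491), and its brighter probe set had -0.03 ± 0.11. HMG3, listed also as HMGR3, an enzyme of isoprenoid synthesis in the cytosol, fell by 0.63 ± 0.09 (limma adjusted p = 0.0293). DXPS, which starts the plastid route to isoprenoids, fell by 0.52 ± 0.09 (limma adjusted p = 0.0468). The remaining named genes that fell were GSTZ5, CML29, LSD1, NEDD8 and MYBS2, with log2 changes between -0.67 and -0.48. Of LSD1 1 of 4 probe sets was called, and the 2 brightest had -0.29 ± 0.07 and -0.28 ± 0.07 (limma adjusted p = 0.165 and 0.159). Of MYBS2 1 of 3 was called, and the dimmest had 0.70 ± 0.21 (limma adjusted p = 0.225). MYBS2, a MYB factor of the sugar response, was the only call among 10 genes of its list, beside 0.396% of all genes that fell. Without control line 1, ADC1, CML29, ADF7 and PP2C45 had limma adjusted p-values of 0.0515 to 0.081 and were not called.

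**Figure D2:**
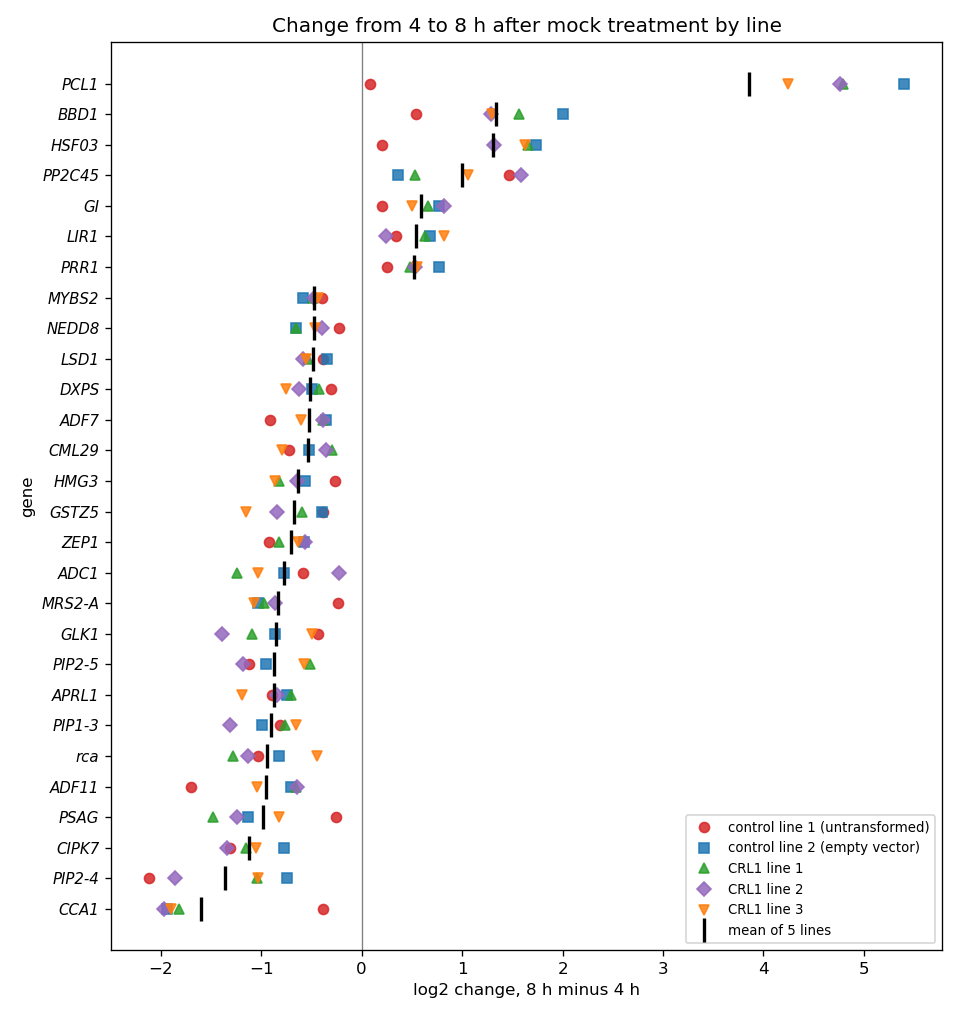
Log2 change from 4 to 8 h after mock treatment for the 28 named genes that were called, with 1 point per line and a black bar at the mean of 5 lines. All points of a gene lie on the same side of 0, as the choice of these genes required. Control line 1 (red circles) lies nearest to 0 for PCL1, BBD1, HSF03, CCA1, PSAG and MRS2-A, among others.

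Of 36 gene lists 8 held a call and 28 held none. Over all genes 0.235% rose and 0.396% fell, so most lists of these sizes would hold no call. A count of 0 or 1 therefore says little about a family. No call was made among 24 Aux/IAA proteins, 26 cytokinin genes, 39 cyclins and cyclin-dependent kinases, 34 histone and DNA replication genes, 35 expansins and wall enzymes, 11 crown root regulators and 6 KNOX genes. The 4 lists with 1 call each in 1 direction were heat shock, MYB, redox (GSTZ5 of 55) and calcium genes (CML29 of 68). Median log2 changes of the lists with no call lay between -0.11 and 0.17, except for 5 genes of oxygen deficit, where all were above 0 and the median was 0.57, or 0.31 without control line 1. In that list NSHB2, a non-symbiotic haemoglobin, had changes of 1.40 in control line 1 and 0.23 to 0.62 in the others (0.66 ± 0.14, limma adjusted p = 0.0952). NSHB1 had 1.14 in control line 1 and 0.19 to 0.72 in the others (0.57 ± 0.12, limma adjusted p = 0.105). AMY3D, a starch-degrading alpha-amylase, had the largest change of 51 starch and sucrose genes, at 2.04 ± 0.47 (limma adjusted p = 0.119), with 519.5 at 8 h in control line 1 and 27.6 to 148.9 in the others. The sugar transporter gene SWEET2b had -0.75 ± 0.14 (limma adjusted p = 0.0637). Further list members were called when control line 1 was left out, a fit in which 0.377% of all genes rose and 0.6% fell. TPP7, a trehalose-phosphate phosphatase, fell by 0.68 ± 0.10 (limma adjusted p = 0.0191) and PHO1-2, a phosphate exporter, by 0.87 ± 0.10 (limma adjusted p = 0.00736). The thioredoxins Trxf and Trxh1 fell by 0.57 ± 0.10 and 0.56 ± 0.09 (limma adjusted p = 0.0461 and 0.0273) and the calmodulin-like CML10 by 0.47 ± 0.08 (limma adjusted p = 0.0441).

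Next, the change in the 3 CRL1 lines was set against that in the 2 control lines, and no difference was detectable. No probe set was called for that difference with limma (0%), and the lowest adjusted p was 0.731. An unadjusted p under 0.05 was reached by 731, fewer than the 1521.1 that chance would give. With 3 residual degrees of freedom and control lines that differed from each other, the test does not show that both kinds of line changed alike. Without control line 2, calls appeared, but the untransformed control line 1 is then the only control. That fit sets the CRL1 lines against this 1 line, so its calls are not a result about CRL1. The split that the values of control line 1 follow was tested after they had been seen. It is the change in the 4 transformed lines minus that in the untransformed line. There 8 probe sets were higher (0.0263%) and 20 lower (0.0657%), with 2386 at an unadjusted p under 0.05. Since the values of control line 1 prompted this test, its counts restate them and support nothing further. The untransformed side of this test is 1 pair of arrays, whose spread is taken to be that of the other lines, so line and transformation cannot be told apart.

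As a description, this difference was 4.72 for PCL1, -1.52 for CCA1 and 1.89 for SAPK9. SAPK9, a kinase of abscisic acid signalling, had signals in control line 1 of 593.1 at 4 h and 544.1 at 8 h. In the other lines SAPK9 went from 115.4, 118.5, 121.3 and 131.3 at 4 h to 345.0, 415.9, 485.0 and 436.8 at 8 h. Over these 4 lines it rose by 1.77 ± 0.10 (limma adjusted p = 0.000123), and over 5 lines it was not called (1.39 ± 0.26, limma adjusted p = 0.0645).

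Other genes differed between the times in control line 1 more than in the other lines. LOC4351188, named chitinase, an enzyme that cuts the chitin of fungal walls, went from 102.0 at 4 h to 1270.8 at 8 h in control line 1. In the other 4 lines chitinase was at 26.9 to 61.7 at 4 h and 29.3 to 84.3 at 8 h. Rcb4, a second gene named chitinase, went from 365.3 to 2452.2 in control line 1 and was at 88.2 to 220.8 and 88.5 to 162.5 in the others. The differences were -3.48 for chitinase and -2.91 for Rcb4. VIT2, a vacuolar iron transporter, went the other way in control line 1, from 800.3 to 125.1, against 896.6 to 1386.4 and 1105.7 to 1407.4 in the others, a difference of 2.71. In the dexamethasone arrays of control line 1 chitinase had 282.6 and 919.1, Rcb4 1108.3 and 2709.4, and VIT2 224.6 and 171.9 at 4 and 8 h.

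Over the 230 probe sets called without control line 1, the median change in the called direction was 0.84 in the 4 lines that chose them and 0.25 in control line 1, and 47 of the 230 had the opposite sign there. A smaller change in the line left out of the choice follows in part from that choice. The position of control line 1 between the mean of the 4 lines at 4 h (set to 0) and at 8 h (set to 1) had a median of 0.20 at 4 h and 0.55 at 8 h. In its dexamethasone arrays the medians were 0.40 and 0.45, and no array of control line 1 entered the choice. The dexamethasone arrays of the other 4 lines had medians of -0.05 to 0.12 at 4 h and 0.94 to 1.19 at 8 h. The mock arrays of the same 4 lines chose the probe sets and set the scale, which favours such medians. In the dexamethasone arrays of these 4 lines, 80.0% to 84.8% of the probe sets lay nearer the 8 h mean at 8 h and 12.2% to 28.3% at 4 h. The shares in the dexamethasone arrays of control line 1 were 47.4% and 46.1%.

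**Figure D3:**
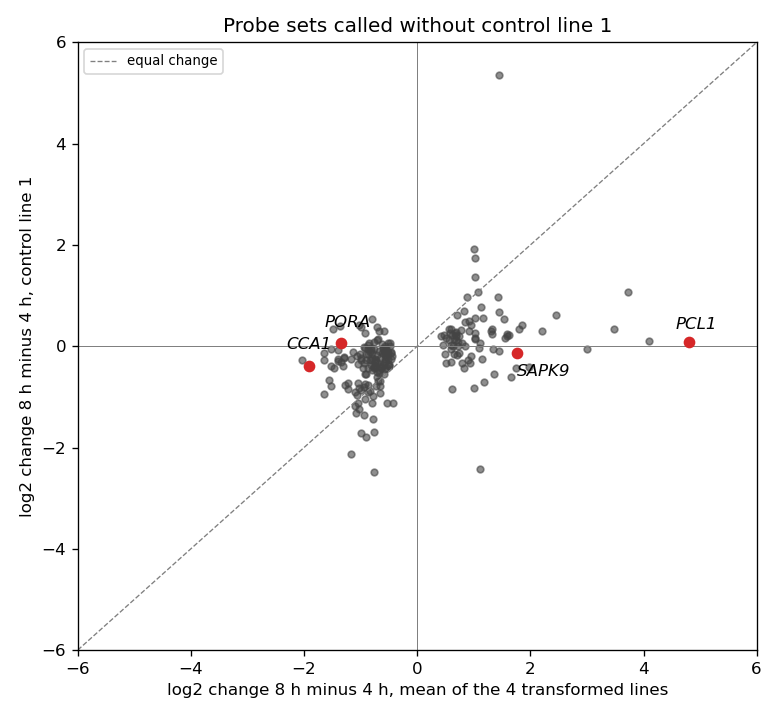
Log2 change from 4 to 8 h in control line 1 against the mean of the 4 transformed lines for the 230 probe sets called without control line 1, with equal change as a dashed line. Most points lie closer to 0 on the vertical axis than on the horizontal axis, and PCL1, CCA1, SAPK9 and PORA are marked in red. The lines on the horizontal axis chose these probe sets, which favours larger changes there.

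The dexamethasone arrays of the same lines share no array with the mock comparison. The steroid also acts on the transgene in the CRL1 lines, so the control lines are given apart. With all 5 lines 4 of 30719 probe sets were called (0.013%), with 4844 at an unadjusted p under 0.05, and all 4 were among the 149. Without control line 1, 124 were called, of which 66 were also called in the mock arrays without it, 53.2% of the dexamethasone list and 28.7% of the mock list. Of the 149 probe sets, 132 moved the same way in control line 2 with dexamethasone (88.6%, against 57.8% of all tested probe sets) and 92 in control line 1 (61.7%, against 55.7%). In CRL1 lines 1, 2 and 3 the counts were 135, 131 and 137, with 56.2% to 58.0% over all tested probe sets.

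For PCL1 the dexamethasone arrays gave log2 changes of -0.17 in control line 1, 4.75 in control line 2 and 4.11 to 4.98 in the CRL1 lines. For CCA1 they gave 0.07, -2.29 and -2.23 to -1.86. The rca changes were -0.90, -0.86 and -1.30 to -0.97, and rca was called there (limma adjusted p = 0.0357). PIP1-3 had 0.58 in control line 1, -2.92 in control line 2 and -2.33 to 0.59 in the CRL1 lines. PIP2-5 had -0.87, -0.64 and -1.58 to -1.02 in the same order. PIP2-4, which fell most in control line 1 with mock treatment, had 0.01 there with dexamethasone, -2.41 in control line 2 and -3.35 to -1.86 in the CRL1 lines. MYBS2, which fell in all 5 mock pairs, had 0.99 to 1.18 in the dexamethasone-treated CRL1 lines and -0.01 and -0.30 in the control lines.

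**Figure D4:**
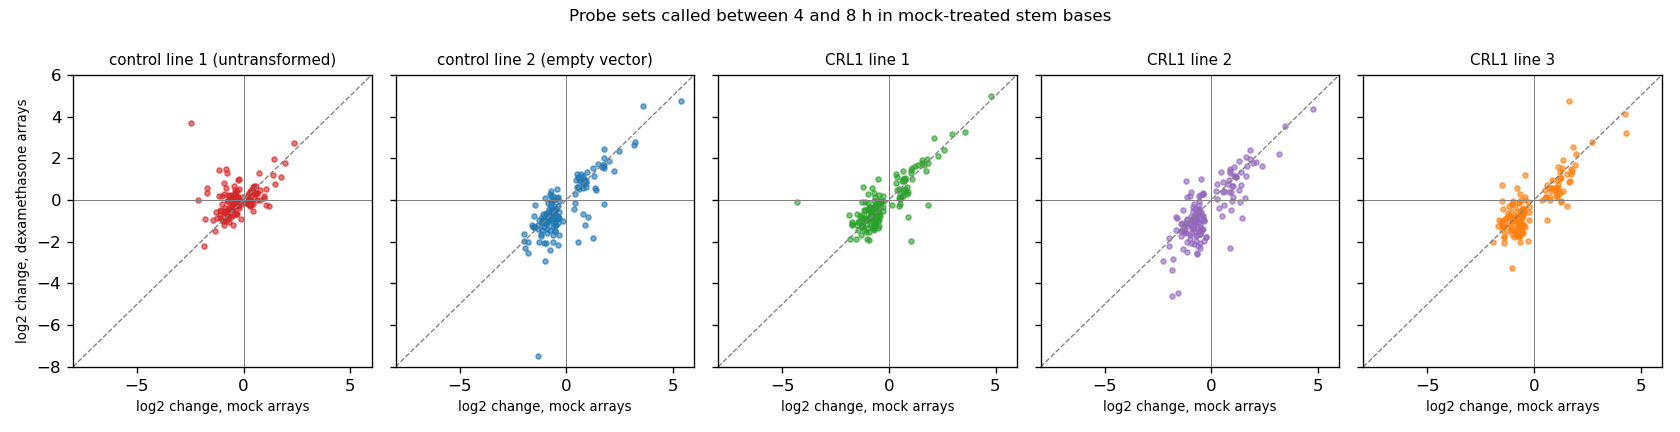
Log2 change from 4 to 8 h with dexamethasone against that with mock treatment for the 149 called probe sets, 1 panel per line, with equal change as a dashed line. Most points lie on the same side of 0 on both axes in control line 2 (132 of 149) and the CRL1 lines (131 to 137), with single probe sets far from the dashed line, against 92 in control line 1.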

How the data were processed

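The arrays were Affymetrix rice arrays. Per the submitters' processing notes the deposited intensity values, on a linear scale, come from MAS5 in Affymetrix Expression Console; versions are not stated in the sources used. Of 57381 probe sets, 123 controls were left out.

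A constant of 1.7, the 20th percentile of all signals, was added before taking log2, which understates changes of dim transcripts. The filter kept 30422 probe sets whose signal exceeded the array median on 3 or more of the 10 arrays. The test was limma 3.58.1 (R 4.3.3) with line as a fixed block, a trended variance prior, 4 residual degrees of freedom and Benjamini-Hochberg adjustment at 0.05. P-values set the change against the spread between lines, moderated by the variance of other probe sets of similar signal. The calls rest on that prior as well, since with no variance trend 0 were higher and 0 lower. Pairs come from the labels, which give the same line at both times. Deviations from the time means correlated at 0.17 to 0.65 within lines and -0.39 to 0.15 between lines. The test code was also run on simulated arrays with 200 changed probe sets and independent noise of the fitted spread. It recovered 78% of log2 changes of size 1 and 97% of size 2, with 18 false calls. The simulated noise was alike in all lines, whereas control line 1 stood apart in the called genes. These rates therefore check the code and do not carry over to the real calls.

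Names came from the platform annotation and a RefSeq table (assembly ASM3414082v1): 22436 probe sets had 1 gene, 95 several and 34727 none listed, and 2416 genes had a name. In lists each gene is represented by its probe set with the highest mean. No coordinates are printed, since the sources do not name a build.

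Members and lists were chosen with earlier results of these data known. List patterns were adjusted, and ambiguous aliases left out, once the annotation had been seen. The rule for named genes took, in each direction, the 12 largest changes among called probe sets that moved the same way in all 5 lines and have 1 named gene, every measured clock gene, and from every other list the 4 genes of lowest p, or fewer. The other named genes that fell, list members called without control line 1, and genes called in the test of the untransformed line were named after their values were seen. Alternatives were other offsets, filters, scalings, blocks, weights and sets of lines. Tables and plots were made in Python 3.11.15 (pandas 2.3.3; numpy 2.4.6; matplotlib 3.10.9).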

Additional observations from a re-analysis of the deposited data

Results flagged for a closer look

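In 9 of 48 named genes the change of control line 1 lay far from those of the other 4 lines, with a gap to its neighbour above 0.71 of the range. Chance gives such a gap in about 1 in 20 groups of unselected values, but that rate does not apply here, since chitinase, Rcb4 and VIT2 were named because they differed in control line 1 and the other genes were chosen with results of these data known. The log2 changes of control line 1 were 0.0796 for PCL1, 0.2025 for HSF03, -0.3886 for CCA1, -0.234 for MRS2-A, 0.05406 for PORA, -0.124 for SAPK9, 3.617 for chitinase, 2.741 for Rcb4 and -2.661 for VIT2. The change in the 4 transformed lines minus that in the untransformed line was prompted by these values and is given as a description, with 1 pair of arrays on the untransformed side. It was 4.72 for PCL1, -1.518 for CCA1, 1.891 for SAPK9, -3.477 for chitinase, -2.914 for Rcb4 and 2.715 for VIT2.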

How the results depend on the processing

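Counts of probe sets higher and lower at 8 h were 46 and 103. They were 19 and 52 without a filter, 1 and 2 with no replicate block (1751 at an unadjusted p under 0.05), 26 and 51 from all 20 arrays with a replicate block, 80 and 173 with array weights, and 0 and 0 with no variance trend (limma, 3191 unadjusted). With line as a random block 63 were lower, the CRL1 lines alone gave 50 lower, and the control lines alone 2 and 2. Leaving out 1 line gave 4 to 86 higher and 5 to 144 lower, the most without control line 1. For the difference between CRL1 and control lines, leaving out 1 line gave 0 to 21 calls. For the dexamethasone arrays the 4 calls became 0 with no replicate block, 0 to 124 with 1 line left out, 622 in the CRL1 lines alone and 0 in the control lines alone, the last 2 chosen after seeing the data. For the untransformed line against the others, a test also added after seeing the data, the 8 higher and 20 lower became 36 lower with the offset at the median signal, 11 lower with the stricter filter, 9 lower with no replicate block, 16 and 33 with array weights and 0 and 0 with no variance trend (2300 unadjusted), and leaving out 1 line gave 2 to 28 higher and 6 to 64 lower. The cause of these shifts was not tested.

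Of the 28 named genes called, all 28 kept the call with the offset at the median, the stricter filter or array weights. The call was kept by 25 with no offset or quantile normalization, 26 with median centring and 16 with line as a random block. It was kept by 13 without a filter, 11 from all 20 arrays, 1 with no replicate block and 0 with no variance trend. None changed direction, which their choice largely fixed, since each had to move the same way in all 5 lines. PRR37, not called, had log2 changes of -0.0027 to 0.0897 with 1 line left out. The 4 residual degrees of freedom and 5 lines limit the precision, and calls near the threshold depend on each line.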
